A study of Homo sapiens with 19 samples.

Results

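The genes described here encode the chains of collagens and laminins, which build the extracellular matrix, and the subunits of integrins, the cell-surface receptors that bind it. They were measured in KhES-3, an established line of human embryonic stem (ES) cells, during the first 3 days of directed differentiation into brown adipocytes (BAs). A gene was a member when the transcript named for a probe on the array mapped through RefSeq to a current symbol of the form COL, number, A, number, or LAMA, LAMB or LAMC with a number, or ITGA or ITGB with a number or one of the letters E, L, M, V and X. This gave 81 genes of the 20503 genes that had a matched probe. The members described below are 80 of them (44 collagen, 11 laminin and 25 integrin genes), and every count of members is over these. The membership rule used names only and no measured value.

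The labels have the cells kept on irradiated mouse embryonic fibroblasts, whereas the study's methods describe culture without feeder cells, and the cells were then moved to a low-attachment dish in serum-free medium with insulin, transferrin, selenium, synthetic lipids, ascorbic acid-2-phosphate and the cytokines IGF-II, BMP4, VEGFA, KITLG, FLT3LG and IL-6. RNA was taken at 19 times after induction, which the slides divide into 3, 4, 6, 8, 10 and 12 h on slide 1, then 14, 16, 20, 24, 28, 32, 36 and 42 h on slide 2, and lastly 48, 54, 60, 66 and 72 h on slide 3. Each time point was a group of 1 array, so there were no replicates, and all 19 groups shared the same cell line, medium and agents. No untreated array was among the samples, and the earliest time point, 3 h, had already received the medium.

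Each signal given here is the brightness of a gene's brightest probe after the arrays were scaled to a common 75th percentile of 871. A change is the mean log2 signal at 60, 66 and 72 h (late) minus that at 3, 4 and 6 h (early). Each window is made of 3 separate times, which do not replicate each other. A gene was called rising or falling when the slope of its log2 signal on hours, fitted over the 19 arrays with limma, had a Benjamini-Hochberg adjusted p under 0.05 over all 32113 probes tested. With no replicates, the error is how far single arrays lay from the fitted line. Since later times lay on later slides, the slide was added to the fit as a block in an alternative, and slopes were taken within each slide too. Levels of different genes come from different probes and were not compared with each other, and signals were added up only over lists of cell type markers, where a bright probe weighs more.

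Collagens are trimers. Type IV collagen forms the sheet-like network of basement membranes, the fibrillar collagens form the fibres of connective tissue, and the fibril-associated collagens bind to the surface of those fibres. Laminins are cross-shaped heterotrimers of 1 alpha, 1 beta and 1 gamma chain that polymerise on the cell surface and organise the basement membrane. Integrins pair 1 alpha with 1 beta subunit, and the pair sets the ligand. Human pluripotent cells are known to adhere to laminins that contain the alpha5 chain through the integrin of alpha6 and beta1, and to vitronectin through integrins of the alphaV family.

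The 6 type IV collagen genes lie in 3 pairs that point away from each other, and of the measured chains only COL4A5 and COL4A6 were called rising. The stretches between the first exons are described as RefSeq gives them on GRCh38.p14. A link between these stretches and the course of the chains was not tested. COL4A1 and COL4A2 were separated by 126 bases on chromosome 13, COL4A4 and COL4A3 by 135 bases on chromosome 2, and COL4A6 and COL4A5 by 379 bases on the X chromosome. The first 2 intervals are printed whole, from COL4A1 towards COL4A2 and from COL4A4 towards COL4A3 on the plus strand. For COL4A5, which rose, the 250 bases before its start are printed on the plus strand, and for COL12A1, the collagen gene with the largest fall, the 250 bases before its start are printed on the minus strand. Capitals mark, on either strand, GGGCGG (the GC box), the box CCAAT bound by NF-Y, and the palindrome GGCGCC. The motifs GGGCGG and GGCGCC overlap where they run together, as in the first sequence.
COL4A1-COL4A2 interval, chr13:110307158-110307283: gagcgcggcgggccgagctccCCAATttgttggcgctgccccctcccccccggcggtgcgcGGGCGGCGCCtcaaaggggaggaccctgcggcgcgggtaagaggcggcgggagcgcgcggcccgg
COL4A4-COL4A3 interval, chr2:227164489-227164623: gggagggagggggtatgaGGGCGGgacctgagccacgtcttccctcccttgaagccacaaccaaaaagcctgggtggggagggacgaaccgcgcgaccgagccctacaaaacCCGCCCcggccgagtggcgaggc
COL4A5 upstream, chrX:108439588-108439837: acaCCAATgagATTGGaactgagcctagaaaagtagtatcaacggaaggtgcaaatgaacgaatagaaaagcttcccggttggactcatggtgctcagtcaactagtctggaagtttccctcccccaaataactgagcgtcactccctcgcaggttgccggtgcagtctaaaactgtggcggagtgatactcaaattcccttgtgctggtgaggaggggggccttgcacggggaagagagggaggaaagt
COL12A1 upstream, chr6:75206054-75206303: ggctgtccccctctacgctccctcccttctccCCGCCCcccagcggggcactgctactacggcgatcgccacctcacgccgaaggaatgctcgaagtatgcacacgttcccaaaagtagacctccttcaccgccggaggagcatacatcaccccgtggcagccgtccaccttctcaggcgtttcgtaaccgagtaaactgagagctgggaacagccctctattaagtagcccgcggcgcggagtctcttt

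The COL4A1-COL4A2 interval held 1 CCAAT, 1 GGGCGG and 1 GGCGCC, and 80.2% of its bases were G or C. The COL4A4-COL4A3 interval held 2 copies of GGGCGG, 1 on each strand. The stretch before COL4A5 held 2 copies of CCAAT on opposite strands and none of the other motifs, and that before COL12A1 held 1 GGGCGG. The motif TATAAA, also searched, was in none of the 4 sequences. Among all 35116 promoter windows of 250 bases in the RefSeq table, GGGCGG was in 42.6%, CCAAT in 32.0%, TATAAA in 10.7% and GGCGCC in 16.4%. A promoter entry was found for 58 members, and of their 77 windows 53.2% held GGGCGG, 22.1% CCAAT, 13% TATAAA and 26.0% GGCGCC. These are matches of letters and not measured binding sites.

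Of the 80 members, 64 were well above background on at least 5 arrays and were tested. 54 of them were well above background on all 19 arrays. A set of 9 members was not well above background on any array. It held the collagen genes COL4A3, COL6A3, COL15A1, COL17A1 and COL19A1, the laminin gene LAMB4, and the integrin genes ITGA2, ITGA8 and ITGB3. The other 7 untested members, COL3A1, COL6A5, COL6A6, COL11A1, COL28A1, ITGAL and ITGB6, passed on 1 to 4 arrays. COL3A1, the chain of type III collagen that is abundant in connective tissue, was well above background at 60 h only, at a signal of 36.5.

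A total of 20 tested members rose and 18 fell. The shares were 31.2% and 28.1%, against 24.6% rising and 29.8% falling among the 16694 genes tested in all. By this count the members moved about as often as the genes of the array. The collagen genes split into 9 rising and 10 falling of 34 tested, the laminin genes into 4 and 4 of 10, and the integrin genes into 7 and 4 of 20. The median change was 0.04 for the tested members and -0.05 for all tested genes. A change of at least 2-fold was reached by 5 rising members (COL20A1, COL23A1, COL4A6, ITGAM and ITGAX) against a background of 6.59%, and by 6 falling members (COL12A1, COL18A1, COL21A1, COL2A1, LAMA3 and ITGA1) against 5.48%. 19 of the 20 rising members had their highest signal at 48 h or later, COL27A1 being the exception, and 15 of the 18 falling members had theirs at 12 h or earlier. Because the slope over these same arrays called them, such hours are favoured in advance. The share over all called genes was not taken.

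**Figure D1:**
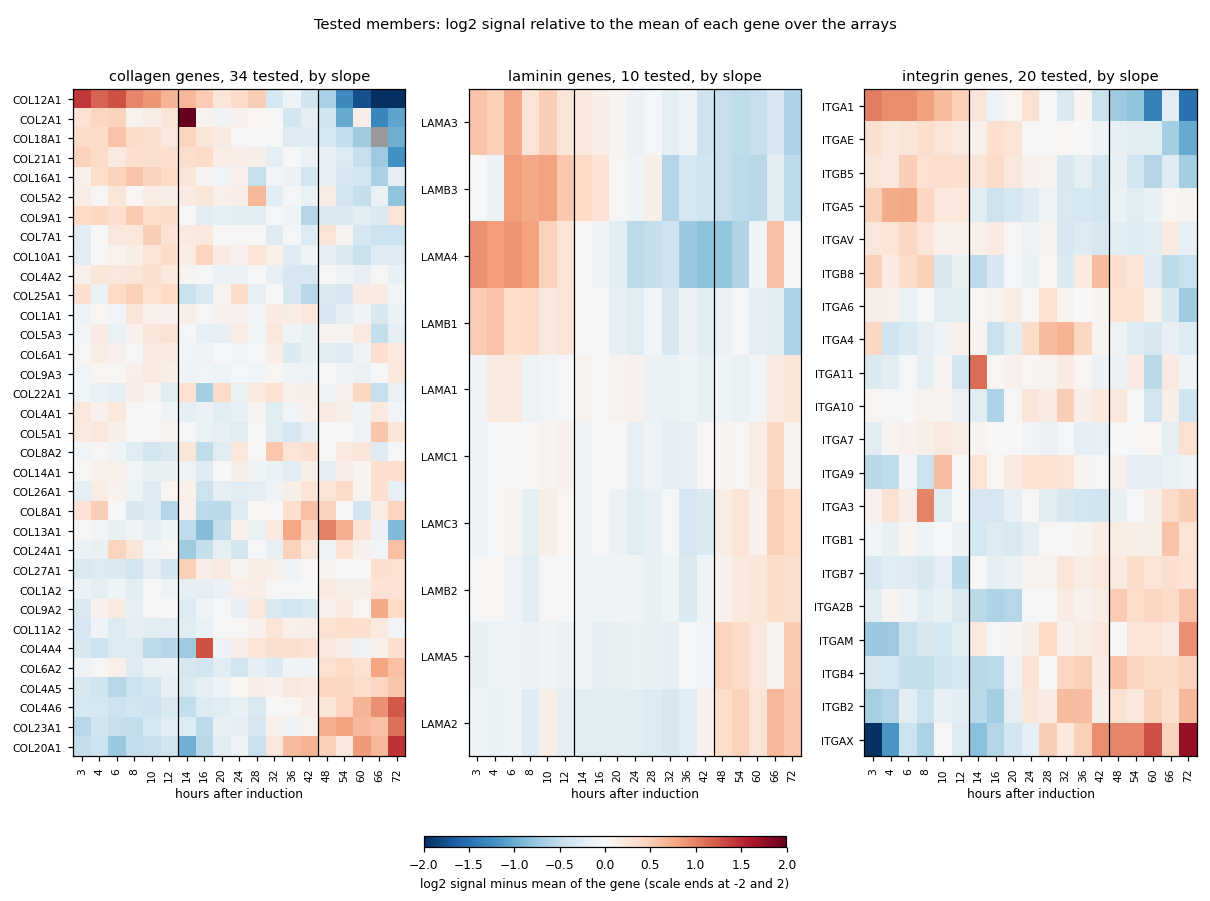
Signal of the 64 tested members by hour, with the collagen, laminin and integrin genes in separate panels and each panel ordered by slope. Colour is the log2 signal minus the mean of the gene over the arrays and ends at -2 and 2, vertical lines mark the slide borders, and the grey cell is the missing value of COL18A1 at 66 h. Falling genes, at the top, pass from red to blue and rising genes, at the bottom, from blue to red. Of the rising genes, 8 had a negative slope under the spike-in scaling.

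The way the arrays were scaled set how many members were called in each direction. Scaling on the array median moved the median change of all genes from -0.05 to -0.42, and scaling on the spike-in controls, RNAs added in known amounts, moved it to -0.69. Both lowered the slopes of all genes alike, so a negative slope could not turn positive under them. Under the median 10 members rose and 27 fell, and under the spike-in scaling 4 and 26. The 18 falling members remained called under either. Of the 20 rising members, 10 remained called under the median and only COL20A1, COL23A1, COL4A6 and ITGAX under the spike-in scaling. The number of rising genes also dropped among all tested genes. It was 4101 under the main scaling, 1771 (10.6%) under the median and 599 (3.59%) under the spike-in scaling. The slope was negative under the spike-in scaling for 8 rising members, COL11A2, COL1A2, COL27A1, COL9A2, ITGB1, LAMA5, LAMB2 and LAMC3. Both scalings had 44.5% of all genes falling.

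With the slide as a block, 7 members rose and 5 fell, while 4.12% and 5.97% of all genes did. The rising ones were COL4A5, COL4A6, COL20A1, COL24A1, ITGB1, ITGB2 and ITGA2B, and the falling ones COL12A1, COL18A1, COL21A1, ITGAE and ITGB5. COL24A1 was not called over all arrays without the block. Within the first slide 1 member rose and 3 fell (backgrounds 1.84% and 3.29%), within the second 8 rose and 6 fell (4.13% and 3.2%), and within the third none rose and 1 fell (0.341% and 0.713%). The slope had the same sign within all 3 slides for 10 of the rising and 8 of the falling members. These members were called by the slope over the same arrays, and the share over all genes was not taken. Since later hours lay on later slides, a step between slides and a change with time cannot be told apart for genes that moved at a border alone.

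**Figure D2:**
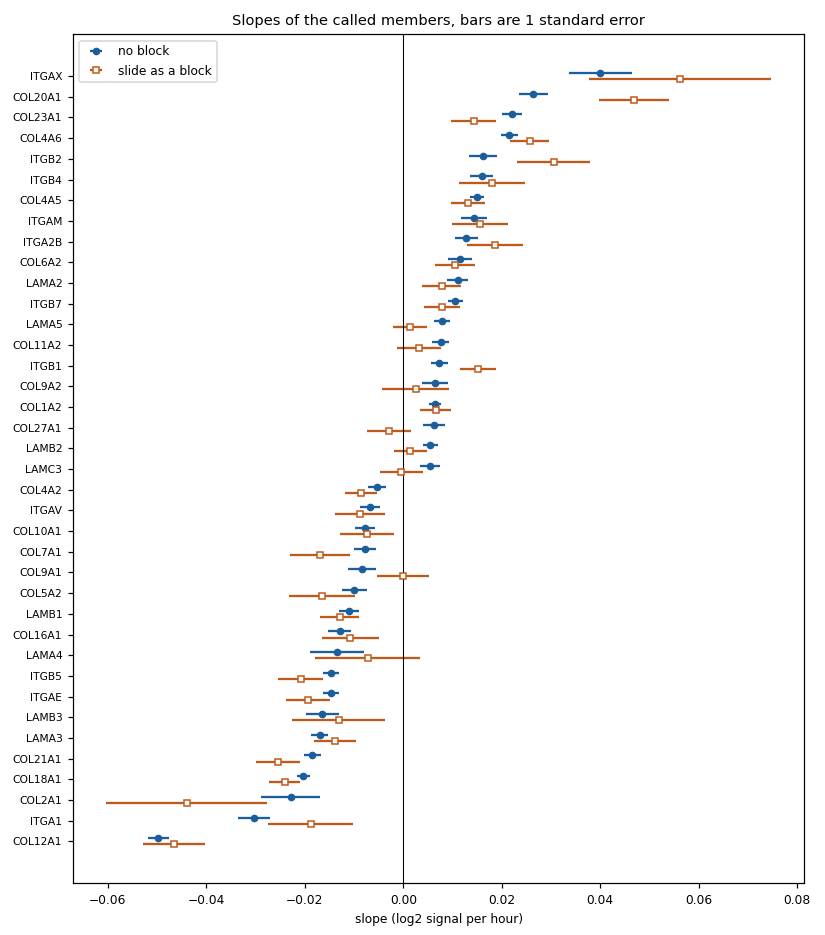
Slope of log2 signal on hours for the 38 called members, with bars of 1 standard error, without (filled circles) and with (open squares) the slide as a block. COL27A1 and LAMC3 changed sign with the block and 12 members passed the threshold with it, COL24A1 (not drawn) included. The slopes shown use the 75th percentile scaling, and those of 8 rising genes, COL11A2, COL1A2, COL27A1, COL9A2, ITGB1, LAMA5, LAMB2 and LAMC3, were negative under the spike-in scaling.

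COL12A1 had the largest change of all tested members. It encodes the chain of type XII collagen, a homotrimer that decorates type I collagen fibrils, and lies on the minus strand of chromosome 6 (chr6:75084326-75206053). Its signal was 981, 828, 893, 728, 682 and 592 from 3 to 12 h (slide 1), 585, 527, 436, 482, 518, 289, 344 and 279 from 14 to 42 h (slide 2) and 234, 152, 109, 87.1 and 86.3 from 48 to 72 h (slide 3). The decline ran through the whole course with small rebounds at 6 h, at 24 to 28 h and at 36 h, and the early and late values did not overlap. The change was -3.26, a fall from a mean of 898 to 93.6, and the slope was -0.0498 ± 0.00219 log2 units per hour (limma adjusted p 3.11e-11). It was the one collagen gene with a fall called within the first slide and again within the second (limma adjusted p 0.0445 and 0.0387). The fall also passed with the slide as a block (limma adjusted p 0.00101). A dimmer second probe of COL12A1, well above background on 9 arrays, fell by 2.48 on the log2 scale.

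COL18A1, the gene for type XVIII collagen, a basement membrane proteoglycan whose C-terminal fragment is endostatin, was the next falling collagen. Its signal was 47064, 46678, 53701, 46397, 45098 and 41779 from 3 to 12 h (slide 1), 49135, 42428, 40856, 35645, 36045, 35425, 30077 and 30072 from 14 to 42 h (slide 2) and 28303, 25485, 22004 and 18305 from 48 to 72 h (slide 3). The spot at 66 h was marked as an outlier by the scanner software and left out, so the late mean rests on 60 and 72 h and the fit on 18 arrays. The values stayed between 41779 and 53701 up to 14 h and then declined, with all values from 48 h below all those before. The change was -1.29 and the slope -0.0203 ± 0.00132 (limma adjusted p 2.04e-09, 0.00101 with the slide as a block).

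COL21A1, which encodes a fibril-associated collagen, held between 665 and 794 up to 16 h. It then fell to 514, 476, 418, 350.0 and 249 at 48, 54, 60, 66 and 72 h. The steepest part of the fall was thus at the end of the course. The change was -1.15 (slope limma adjusted p 8.95e-08, 0.00342 with the slide as a block).

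COL2A1, the fibrillar collagen of cartilage, fell by 1.13 on the log2 scale, from a mean of 188 to 85.6 (limma adjusted p 0.00367). A single array stood apart, with 776 at 14 h between 171 at 12 h and 149.5 at 16 h. Without that array the slope of COL2A1 was -0.0189 and remained called, but a block for the slide removed the call over all arrays (limma adjusted p 0.0987). The other fibrillar chain that fell was COL5A2 of type V collagen, with a change of -0.61. It ranged from 563 at 72 h to 1559 at 28 h with a median of 1054.

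The collagens that rose most were COL20A1, COL4A6 and COL23A1. COL20A1, a fibril-associated collagen gene, had signals of 184, 190.5, 152, 182, 185 and 194 from 3 to 12 h (slide 1), 131, 174, 221, 239, 188, 299, 398 and 412 from 14 to 42 h (slide 2) and 355, 299.6, 462, 403 and 697 from 48 to 72 h (slide 3). Up to 28 h the values lay between 131 and 239, and from 32 h all were higher. The change was 1.53 and the slope 0.0264 ± 0.00298 (limma adjusted p 7.83e-07, 0.00157 with the slide as a block). Its second probe rose as well, by 1.09 on the log2 scale.

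COL23A1, a transmembrane collagen gene, rose by 1.26 on the log2 scale, from 401 to 960.3. Its signal was 531 at 36 h and 585 at 42 h on the second slide, and 928 at 48 h and 979 at 54 h on the third. The largest single step thus fell on the border between slides. The slope was called without the block (limma adjusted p 5.37e-08) and missed the threshold with it (limma adjusted p 0.0571). COL13A1, another transmembrane collagen gene, was not called over the whole course, in which it rose and then fell. It reached 531 at 48 h and came down to 434, 320.4, 243 and 142 at 54, 60, 66 and 72 h, and it was the one member called falling within the third slide (limma adjusted p 0.0493). COL13A1 had risen within the second slide (limma adjusted p 0.0287).

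Type IV collagen showed a split by chain. The alpha1 and alpha2 chains, which together form the ubiquitous type IV trimer, were not called rising, while the alpha5 and alpha6 chains, partners in another trimer, rose. COL4A6 had signals of 633, 636, 603, 622, 607 and 654 from 3 to 12 h (slide 1), 575, 667, 682, 728, 656, 818, 826 and 891 from 14 to 42 h (slide 2) and 958, 1093, 1304, 1528 and 1919.6 from 48 to 72 h (slide 3). It was flat for the first 14 h and then climbed, with each of the last 5 arrays above the one before. The change was 1.33 and the slope 0.0215 ± 0.00174 (limma adjusted p 1.49e-08, 0.00179 with the slide as a block).

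COL4A5, its neighbour on the X chromosome, rose by 0.88 on the log2 scale, from a mean of 1255 to 2310.3. Its signal was lowest at 6 h, at 1141, and stood at 1741, 2281 and 2495 at 24, 48 and 72 h, so most of its rise came before 48 h. All values from 48 h were above all earlier ones. The slope was 0.0150 ± 0.00137 (limma adjusted p 6.16e-08, 0.0283 with the slide as a block). It stayed positive under the spike-in scaling but was not called there (limma adjusted p 0.203).

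COL4A1 ranged from 1279.9 at 32 h to 1766 at 3 h with a median of 1516, with early and late values that overlapped. Its change of -0.15 was not called (limma adjusted p 0.830). COL4A2 was called falling (limma adjusted p 0.0149), by 0.29 on the log2 scale, from 10115 to 8279, and the sign of its late minus early change turned under background correction by normexp and quantile normalization. It lost the call with the slide as a block (limma adjusted p 0.106). COL4A4 was not called and had 1 value apart, 484 at 16 h, between 121 at 14 h and 188 at 20 h. COL4A3, its neighbour, was not well above background on any array.

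**Figure D3:**
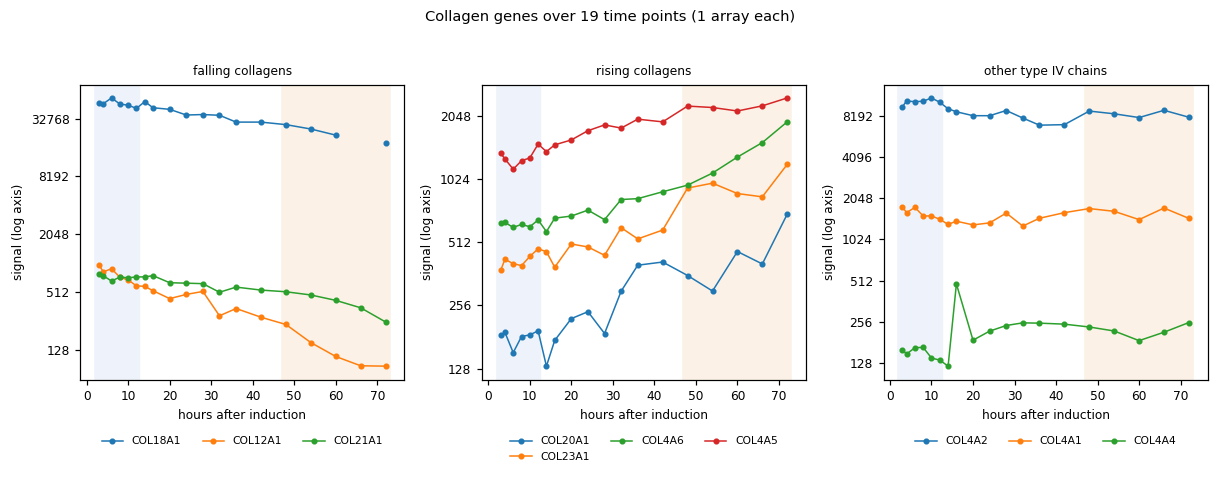
Signals of 3 falling and 4 rising collagen genes and of the other 3 measured type IV chains against hours, 1 array per time point, on log axes. The shaded bands are slides 1 and 3 and the gap in COL18A1 is the spot left out at 66 h. COL12A1 fell from 981 to 86.3 between 3 and 72 h, while COL4A6 rose from 633 to 1919.6, and the slopes of COL12A1, COL18A1, COL21A1, COL20A1, COL23A1, COL4A5 and COL4A6 kept their sign under all 3 scalings.

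Of the chains of type I collagen, the main collagen of bone and skin, COL1A2 was called rising and COL1A1 was not called. COL1A2 rose by 0.37 on the log2 scale (limma adjusted p 1.63e-04), from 4717 to 6083, a direction that turned under the spike-in scaling and, for the change, also under the array median. It missed the threshold with the slide as a block (limma adjusted p 0.199). COL1A1 ranged from 6642 at 48 h to 9908 at 8 h with a median of 8592, with a change of -0.13 (limma adjusted p 0.0629). Its values were 9846 at 42 h and 6642 at 48 h, across the border between slides. Leaving out the array at 3 h or at 42 h brought COL1A1 under the threshold as falling.

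Type VI collagen, a microfibril that links cells to the surrounding matrix, was represented by COL6A1 and COL6A2, while COL6A3, a further chain of the usual trimer, was not well above background on any array and had signals of 5.09 to 20.8. COL6A2 rose by 0.55 on the log2 scale (limma adjusted p 5.52e-04), from 947 to 1386, a change that turned negative under the spike-in scaling. It stayed between 717 and 1009 until 42 h and was at 1155 or higher afterwards, across a border between slides. It was not called with the slide as a block (limma adjusted p 0.115). A dimmer second probe of COL6A2 was not called (change 0.33, limma adjusted p 0.0863). COL6A1 was not called and ranged from 26204 at 36 h to 40181 at 66 h with a median of 31462. COL6A5 was well above background on 4 arrays, with its highest value, 47.7, at 60 h. COL6A6 had 778 at 60 h and at most 16.4 on every other array.

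Single arrays also set COL2A1 and COL4A4 apart, as given above, and in each of these cases the neighbouring time points did not share the high value. Among the fibrillar genes 3 rose (COL1A2, COL11A2 and COL27A1, all with negative slopes under the spike-in scaling) and 2 fell of 9 tested. Among the fibril-associated genes 2 rose (COL20A1 and COL9A2, the latter with a negative slope under the spike-in scaling) and 4 fell (COL12A1, COL16A1, COL21A1 and COL9A1) of 9 tested. The shares rising and falling were 33.3% and 22.2% for the fibrillar and 22.2% and 44.4% for the fibril-associated genes, against 24.6% and 29.8% of all genes. COL16A1 had a second probe that rose by 0.84 on the log2 scale where the brighter one fell by 0.70, so its direction depends on the probe. COL7A1, which forms the anchoring fibrils below epithelia, fell by 0.41 (limma adjusted p 0.00655), with its highest value, 2621, at 10 h.

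The laminin genes went both ways, with LAMA3, LAMB3, LAMA4 and LAMB1 falling and LAMA2, LAMA5, LAMB2 and LAMC3 rising (LAMA5, LAMB2 and LAMC3 with negative slopes under the spike-in scaling). LAMA3, an alpha chain known from epithelial basement membranes, had signals of 278, 259, 316, 226, 263 and 219.7 from 3 to 12 h (slide 1), 215, 204, 195, 173, 185, 165, 175 and 139.8 from 14 to 42 h (slide 2) and 135, 132, 135, 147 and 121 from 48 to 72 h (slide 3). Its early values lay between 259 and 316 and its late ones between 121 and 147. The change was -1.08 and the slope -0.0170 ± 0.00180 (limma adjusted p 3.55e-07), and it missed the threshold when the slide was a block (limma adjusted p 0.0535).

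LAMB3, a beta chain also known from epithelia, was not highest at the start. It was at 253 and 232 at 3 and 4 h, 448, 426 and 440.2 at 6, 8 and 10 h, and 176 at 72 h. Its change was -0.66 (slope limma adjusted p 4.99e-04, 0.411 with the slide as a block).

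LAMA4, a laminin chain known from vessels and fat, had the deepest trough of the laminin genes. Its signal was 883, 834, 858, 813, 645 and 562 from 3 to 12 h (slide 1), 477, 446, 399, 325, 334, 351, 279 and 264 from 14 to 42 h (slide 2) and 272, 309, 441, 703 and 453 from 48 to 72 h (slide 3). It was highest up to 8 h and lowest at 42 h, and the value at 66 h exceeded all those from 10 h on. The change was -0.72 with a slope just past the threshold (limma adjusted p 0.0424), which was lost with the slide as a block (limma adjusted p 0.721) and on leaving out any 1 of 9 arrays (3, 4, 6, 8, 10, 12, 42, 48 or 54 h). Of 3 further LAMA4 probes, 1 was called rising (limma adjusted p 0.00201) and the others were not called, so the fall was that of the brightest probe.

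LAMB1, the beta chain of the early embryonic laminin-111, fell by 0.82 on the log2 scale (limma adjusted p 2.61e-04). It was at 9712 at 3 h and 10097 at 4 h, its highest, held between 5448 and 6715 from 20 to 66 h, and was lowest at 72 h, at 4397. The adjusted p with the slide as a block was 0.0520 in limma. LAMA1 and LAMC1, which encode the other chains of laminin-111, were not called, with changes of 0.03 and 0.24 (limma adjusted p 0.877 and 0.101). LAMA1 was called falling under the array median and the spike-in scaling (limma adjusted p 0.0431 and 0.0373), and a second, dimmer LAMA1 probe was called rising (limma adjusted p 0.00130). The brightest probe of LAMA1 ranged from 2638 at 42 h to 3474 at 72 h with a median of 2820.2, and that of LAMC1 from 5174 at 32 h to 7830.5 at 66 h with a median of 5825.

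LAMA2, LAMA5, LAMB2 and LAMC3 were called rising, with changes of 0.59, 0.38, 0.33 and 0.35 (limma adjusted p 3.14e-04, 6.89e-04, 0.00598 and 0.0314), and all 4 changes were negative under the spike-in scaling, those of LAMB2 and LAMC3 also under the array median. These values are those of the brightest probes. Dimmer second probes of LAMB2 and LAMC3 rose by 0.71 and 0.46 under the main scaling (limma adjusted p 9.49e-08 and 0.00162). LAMA5, whose chain supports the self-renewal of human ES cells in culture, stayed between 1329.8 and 1493 on the first 2 slides. It then stood at 2070.0, 1972, 1778, 1589.9 and 2185 at 48, 54, 60, 66 and 72 h. The rise of LAMA5 lay at the border to the third slide, and its slope with the slide as a block was 0.00135 (limma adjusted p 0.853).

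LAMA2, the alpha chain of muscle laminin, was 538, 430.2 and 531 at 10, 36 and 42 h, and reached 792 at 66 h. Its adjusted p in limma with the slide as a block was 0.234. LAMB2 ranged from 5037 at 36 h to 7932 at 66 h with a median of 5884 and LAMC3 from 808 at 36 h to 1428 at 66 h with a median of 1004, and the block removed both calls (limma adjusted p 0.834 and 0.970). LAMC3 also lost its call without the array at 54, 66 or 72 h. No laminin gene was called in either direction with the slide as a block.

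**Figure D4:**
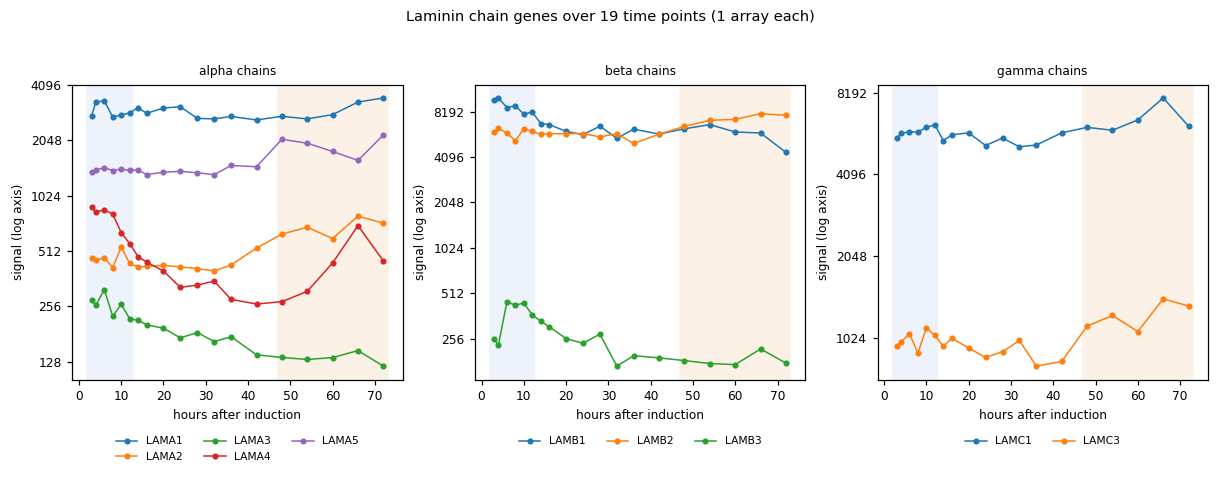
Signals of the 10 tested laminin chain genes against hours, alpha, beta and gamma chains in separate panels on log axes, 1 array per time point, with slides 1 and 3 shaded. LAMA4 fell to 264 at 42 h and stood at 703 at 66 h, and LAMA5 stepped from 1469 at 42 h to 2070.0 at 48 h. The late minus early changes of LAMA2, LAMA5, LAMB2 and LAMC3 were negative under the spike-in scaling, as were the slopes of the last 3.

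ITGAX and ITGA1 were near background on part of the arrays. ITGAX, the alphaX subunit of myeloid cells, had signals of 4.86, 18.4, 30.6, 26.7, 42.2 and 34.1 from 3 to 12 h (slide 1), 23.1, 27.6, 31.7, 36.5, 58.5, 47.9, 57.4 and 78.7 from 14 to 42 h (slide 2) and 81.3, 81.6, 101, 57.2 and 138 from 48 to 72 h (slide 3). It was well above background on 13 arrays, 1 of the early and all of the late ones, and the value at 3 h was far below the rest. With 2 early values not well above background, the change of 2.73 is not a firm size. The slope was 0.0400 ± 0.00642 (limma adjusted p 4.22e-05, 0.0646 with the slide as a block). Without the 3 h array the slope of ITGAX was 0.0330 and remained called.

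ITGAM, which encodes the alphaM subunit of macrophages and granulocytes, rose by 1.09 on the log2 scale (limma adjusted p 1.54e-04). Its values were 63.1, 120.4, 106 and 199 at 3, 14, 48 and 72 h, and the step from 12 to 14 h, at a border between slides, was 0.44 on the log2 scale. It was not called with the slide as a block (limma adjusted p 0.0969). ITGB2, the beta subunit that pairs with alphaL, alphaM and alphaX, was well above background on 8 arrays, none of them early and only 1 of them late. It therefore entered the test through arrays after 6 h only. By a bound it was 1.82-fold higher late, which is not a firm size with 1 detected late array. Its slope, which ran from early values not well above background, was called without and with the slide as a block (limma adjusted p 1.29e-04 and 0.0182). The slope was not called with the table of intensities as deposited or with normexp and quantile normalization (limma adjusted p 0.198 and 0.0552). Such a bound sets the late mean against the lowest signal of detected probes on the early arrays. ITGAL, the alpha subunit of lymphocytes, passed on 4 arrays, with 99 at 72 h.

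ITGB7, a beta subunit of lymphocytes, rose by 0.57 on the log2 scale, from 297 to 440.4, a change that was negative under the spike-in scaling (limma adjusted p 1.53e-05 under the main scaling). It was not called with the slide as a block (limma adjusted p 0.188). ITGAE, the alpha subunit that pairs with beta7, moved the other way. It was at 1984, 1590.0, 1407, 992 and 787 at 3, 24, 48, 66 and 72 h. The change of ITGAE was -0.91, called also with the slide as a block (limma adjusted p 8.96e-07 and 0.0144). Of the 5 leukocyte subunits tested 4 rose and 1 fell, against 24.6% and 29.8% of all genes. The 4 include ITGB2 and ITGAX, which were well above background on none and 1 of the early arrays. With the slide as a block, and likewise under the spike-in scaling, 1 rose and 1 fell.

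Markers of blood cells were checked beside these genes. Of 6 (PTPRC, SPI1, GATA1, CD34, RUNX1 and TAL1), 4 were well above background on at least 5 arrays, and CD34 and GATA1 on none. PTPRC was called rising, from 69.4 to 148, with 80.4 at 12 h and 203 at 14 h, across a border between slides, and was not called with the slide as a block or under either other scaling (limma adjusted p 0.487, 0.121 and 0.573). RUNX1 fell, from 228 to 49.3. The summed signal of the 6 ranged from 403 to 449 at 3, 4 and 6 h and from 335 to 418 at 60, 66 and 72 h, and reached 610.4 in between. Their part in the signals of the leukocyte integrins was not tested. In these bulk RNA samples, a signal from few cells of one type and one from little RNA in every cell cannot be told apart.

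ITGA1, the alpha1 subunit of a collagen and laminin receptor, fell. Its signal was 147, 138, 138, 128, 112 and 100.4 from 3 to 12 h (slide 1), 85.9, 67.7, 74.1, 89.2, 70.9, 58.3, 75.4 and 53.0 from 14 to 42 h (slide 2) and 44.0, 41.6, 28.5, 62.2 and 25.6 from 48 to 72 h (slide 3). It was well above background on all early arrays and on 1 late array, and apart from 66 h the values from 48 h on were the lowest. The change of -1.98 takes in 2 late values not well above background and is not a firm size. The slope was -0.0303 ± 0.00327 (limma adjusted p 4.58e-07), and within the first slide alone it was called falling (limma adjusted p 0.0429). It was not called when the slide was a block (limma adjusted p 0.182). No collagen-binding subunit rose. ITGA10 and ITGA11 were not called, and ITGA2 was not well above background on any array.

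Among the integrins that bind the RGD sequence of fibronectin and vitronectin, ITGB5 and ITGAV fell. They encode the 2 subunits of the vitronectin receptor alphaVbeta5. ITGB5 had signals of 6404, 6277, 7683, 6722, 6947 and 6789.6 from 3 to 12 h (slide 1), 6487, 7087, 6385, 5769, 5681, 4349.9, 4803 and 4219 from 14 to 42 h (slide 2) and 4892, 4154, 3629, 4549.5 and 3394 from 48 to 72 h (slide 3). It stayed between 5769 and 7683 until 24 h, then dropped, and was at most 4892 from 32 h on. The change was -0.82 and the slope -0.0147 ± 0.00168, called without and with the slide as a block (limma adjusted p 9.28e-07 and 0.0106).

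ITGAV fell by 0.37 on the log2 scale (limma adjusted p 0.00746), from 3387 to 2619, with 3121 at 66 h against at least 3197 on the early arrays. The call was lost when the slide was a block (limma adjusted p 0.283). ITGA5, the alpha subunit of the main fibronectin receptor, was 585, 707 and 713 at 3, 4 and 6 h, 313 at 16 h and 437 at 72 h. Each value up to 12 h was above each one from 14 h on. The drop, from 488 at 12 h to 356 at 14 h, lay across a border between slides. The slope over all 19 arrays missed the threshold (change -0.68, limma adjusted p 0.0654). Leaving out 1 array at 14, 16, 20, 66 or 72 h brought it under the threshold. A block for the slide left ITGA5 a slope of 7.94e-05 over all arrays (limma adjusted p 0.995).

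ITGB8 was not called and ranged from 97 at 14 h to 217 at 42 h with a median of 136 (change -0.75, limma adjusted p 0.341). ITGB3, the beta3 subunit, was not well above background on any array. ITGA2B, known from platelets as the partner of beta3, rose by 0.53 on the log2 scale (limma adjusted p 1.86e-04), a change that was negative under the spike-in scaling. It dipped to 121 at 16 h and was 276 at 72 h, its highest. With the slide as a block its adjusted p was 0.0499 in limma.

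Of the 4 laminin-binding subunits tested, ITGB4 rose and the others were not called, and the beta1 subunit with which some of them pair rose too. ITGB1, the beta1 subunit shared by most matrix-binding integrins, rose by 0.37 on the log2 scale (limma adjusted p 0.00141), a direction that turned under the spike-in scaling and, for the change, also under the array median. It was at 1651, 1337, 1900.4 and 2551 at 3, 14, 42 and 66 h, and the slope passed with the slide as a block (limma adjusted p 0.0171). ITGB4, the partner of alpha6 in hemidesmosomes, rose by 0.78, from 512 to 878 (limma adjusted p 2.13e-05). The values of ITGB4 lay between 455 and 535 to 16 h and at 623 or more from 20 h, and the slope was not called with the slide as a block (limma adjusted p 0.103).

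ITGA6, the alpha6 subunit of the laminin receptors, was highest in the middle of the course. It was 5791, 4572, 6624, 6620.1 and 6608 at 3, 12, 28, 48 and 54 h. It then stood at 5744, 4279 and 3277 at 60, 66 and 72 h, the last its lowest value. Over 19 arrays the slope was -0.00259 ± 0.00257 and was not called (limma adjusted p 0.410), while over 3 to 54 h it was 0.00586 and called rising (limma adjusted p 0.0458). Both ITGA6 probes had negative slopes over the whole course. ITGA3 and ITGA7, other laminin-binding alpha subunits, were not called.

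**Figure D5:**
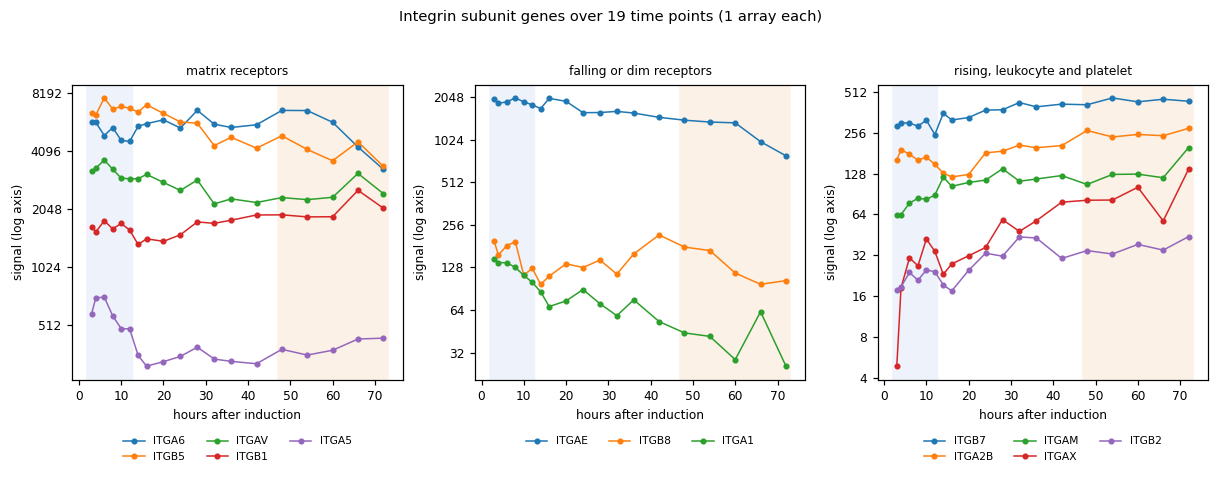
Signals of 13 integrin subunit genes against hours on log axes, 1 array per time point, with slides 1 and 3 shaded. ITGB5, ITGAE and ITGA1 declined, ITGA6, not called, stood at 6608 at 54 h and 3277 at 72 h, and ITGAX rose from 4.86 at 3 h to 138 at 72 h. The change of ITGB1, ITGB7 and ITGA2B was negative under the spike-in scaling.

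Genes that act with the members were examined in the same fit. From a list of 98 other matrix and adhesion genes, 89 were tested, of which 26 rose and 32 fell (29.2% and 36.0%, against the 24.6% and 29.8% of all genes). Among the 22 genes for proteins that connect integrins to the cytoskeleton, 3 rose and 12 fell, and with the slide as a block none rose and 2 fell. VCL, which encodes vinculin, fell by 1.24 on the log2 scale (limma adjusted p 5.85e-07), from 20962 to 8898, and LIMS2, a partner of integrin-linked kinase, by 1.30 (limma adjusted p 4.45e-07). Both falls also passed with the slide as a block (limma adjusted p 0.0210 and 0.0287). PTK2, the focal adhesion kinase, was not called (change -0.05, limma adjusted p 0.778). Of 10 other matrix receptors tested, 1 rose and 5 fell, with CD44, the hyaluronan receptor, falling by 1.37 (limma adjusted p 7.05e-06, 0.116 with the slide as a block). None of these receptors was called with the slide as a block.

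Of 17 tested genes that modify newly made collagen chains, 9 rose and 2 fell (52.9% and 11.8%, against 24.6% and 29.8% of all genes), and 5 of the 9 (MIA3, P3H1, P3H3, PLOD1 and PLOD3) had negative slopes under the spike-in scaling. This split depended on the settings, with 3 rising and 3 falling under the array median, 1 and 4 under the spike-in scaling and 3 and 0 with the slide as a block. P4HA1 and P4HA2, alpha subunits of the prolyl 4-hydroxylase that stabilises the triple helix, rose by 1.38 and 1.27 on the log2 scale (limma adjusted p 1.38e-04 and 3.83e-04, and 0.0241 and 0.0196 with the slide as a block). P4HA1 went from 1831 to 4775 and P4HA2 from 2844 to 6863. COLGALT1, a collagen galactosyltransferase, rose by 0.87 (limma adjusted p 8.99e-08). SERPINH1, the collagen chaperone HSP47, was not called (change -0.17, limma adjusted p 0.298). It was at 27639, 11552 and 27304 at 3, 48 and 72 h, and was called falling over 3 to 54 h (limma adjusted p 1.48e-06) and under the spike-in scaling (limma adjusted p 0.00355). Among the procollagen proteinases and crosslinking enzymes 5 rose and 3 fell of 13 (38.5% and 23.1%, against 24.6% and 29.8% of all genes), 1 rose and 4 fell under either other scaling, and 1 rose and none fell with the slide as a block. Of these, ADAMTS2, which removes the N-propeptide, rose by 1.41 (limma adjusted p 1.29e-07, 0.0135 with the slide as a block). LOX, a crosslinking enzyme, was not called (change 1.00, limma adjusted p 0.0838). It was at 218, 2006 and 292 at 3, 36 and 72 h, and was called rising over 3 to 54 h (limma adjusted p 7.03e-04).

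Of the other matrix glycoproteins and proteoglycans, 7 rose and 6 fell of 19 (36.8% and 31.6%, against 24.6% and 29.8% of all genes). With the slide as a block 2 rose and 1 fell, under the array median 3 and 8, and under the spike-in scaling 2 and 8. FN1, the gene for fibronectin, rose from 151 to 968, a change of 2.68 (limma adjusted p 2.50e-09, 0.00863 with the slide as a block). SPARC, a collagen-binding protein, rose by 0.69 (limma adjusted p 5.38e-04, 0.319 with the slide as a block). The basement membrane linkers NID1 and HSPG2 rose by 0.55 and 0.63 (limma adjusted p 1.50e-05 and 1.32e-05), both changes were negative under the spike-in scaling, and neither gene was called with the slide as a block (limma adjusted p 0.104 and 0.219). THBS2, a matricellular thrombospondin, fell from 1771 to 337, a change of -2.39 (limma adjusted p 1.92e-09). TIMP4 and TIMP3, inhibitors of matrix metalloproteinases, had changes of -1.88 and -1.74 (limma adjusted p 1.70e-07 and 0.00256, and 0.0151 and 0.217 with the slide as a block). Of the 8 collagenase, gelatinase and inhibitor genes tested, 1 rose and 4 fell (12.5% and 50%, against 24.6% and 29.8% of all genes). None rose and 4 fell under either other scaling, and none rose and 1 fell with the slide as a block.

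The cells could be checked against markers only within these arrays. The pluripotency genes POU5F1, NANOG, SOX2, LIN28A and DPPA4 were well above background on all 19 arrays, and POU5F1 and LIN28A fell, calls that were lost with the slide as a block (limma adjusted p 0.198 and 0.572). Of 9 fibroblast markers, 5 were detected on at least 5 arrays, FAP and PRRX1 on none, and the summed signal ranged from 27234 to 29919 early and from 16802 to 33680 late. The THY1 probe alone had means of 28028 early and 23521 late, so this sum mainly follows 1 gene, which was not called. TWIST1 was called rising and PDGFRB falling, neither with the slide as a block (limma adjusted p 0.156 and 0.707), and TWIST1 neither under the array median nor under the spike-in scaling. Of 6 endothelial markers, 4 were detected on at least 5 arrays and ERG on none, and their sum ranged from 1242 to 1359 early and from 674 to 711 late. TEK fell from 1016 to 219.6, also with the slide as a block (limma adjusted p 6.96e-04). CDH5, TIE1 and VWF were called rising, but none of them under the spike-in scaling, where the slope of CDH5 was negative, or with the slide as a block (limma adjusted p 0.619, 0.198 and 0.625), where that of CDH5 was negative too. The 6 trophoblast and amnion markers were all detected on at least 5 arrays, and their sum ranged from 6802 to 7986 early and from 9218 to 12997 late. This sum mainly follows 1 gene, KRT7. GATA3, GABRP, TFAP2A and ISL1 were not called, with changes of 0.06, 0.28, 0.27 and -0.42. KRT7, from 7100.4 to 11104, and CGA, by a bound 2.13-fold higher late, were called rising, neither of them under the spike-in scaling or with the slide as a block (limma adjusted p 0.659 and 0.738). CGA was well above background on none of the early arrays and on 2 late ones. Its slope thus ran from undetected early values, and the bound is not a firm size. The call of CGA was lost with the table of intensities as deposited (limma adjusted p 0.192). None of 6 primitive streak and endoderm markers, all detected on at least 5 arrays, was called, and their sum ranged from 1566 to 1709 early and from 988 to 2347 late. The part of such cells in the collagen and laminin signals was not tested.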

How the data were processed

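Total RNA of KhES-3 cells was labelled with Cy3 and hybridised to one-colour Agilent human expression arrays, 1 for each of 19 time points. The authors deposited the scanner output of Agilent Feature Extraction 10.10.1.1 (the version in the submitters' processing notes), in which each spot has a processed intensity with the local background subtracted, not scaled between arrays, and median pixel intensities of the spot and its background. Flags of 0 or 1 in the same deposited files mark spots well above background, saturated spots and outliers. A further table of intensities by the authors holds the processed intensity times 1 factor per array (0.905 to 1.38) and is blank where a spot was not well above background. The rule behind the factors is not given in the sources used here.

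Of 62976 spots per array, control spots and outlier spots (0.632% of spots) were removed. Saturation was flagged at none. Processed intensity was averaged over the spots of a probe and then turned to log2. The 75th percentile of the log2 intensities of each array's spots was subtracted from it. Between 49.6% and 64.7% of probes were well above background per array, and precision is limited by how many arrays there are. Of 50683 probes, 28174 were matched through RefSeq (GRCh38.p14) to 20503 genes, and the probe with the highest mean stood for a gene (103 probes for 80 members, 17 members with more than 1). Probes that were well above background on 5 or more arrays (32113, for 16694 genes) entered a linear fit on hours with limma 3.58.1 in R 4.3.3, two-sided, with Benjamini-Hochberg adjustment over all of them. Because each group is 1 array, p-values measure the scatter around a line and not the spread between cultures. On data simulated from these means with 200 changed probes of 32113, the slope on hours recovered 184 (92%) among 196 calls. The planted slopes were all of 1 size, larger than those of most called members, and the simulated scatter held no slide effect. The recovery therefore does not describe smaller slopes or steps between slides.

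Alternatives were the array median or spike-in controls (7 of 10 levels) as the scaling, normexp (offset 50) on the median intensities followed by quantile normalization, the table of intensities as deposited, a fit with no filter, well above background on all 19 arrays, log2 hours, 3 to 54 h, the slide as a block, the mean of a gene's probes, and each array left out. A window with no detected array gave only a bound.

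Of the genes that met the membership rule, 1 is not reported here. Named genes were all tested laminin genes among the rest, the 8 collagen and the 8 integrin genes with the largest called change among those detected on all arrays of the brighter window, a fixed list of well-studied chains, and from the partner list the 3 largest rises, the 3 largest falls and a fixed list. The other genes named, COL13A1, COL4A4, COL5A2, COL7A1, COL16A1, ITGB2, VCL, LIMS2, CD44, P4HA2 and COLGALT1 among them, were chosen after their values were seen. Members and lists were chosen with earlier results of these data known.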

Additional observations from a re-analysis of the deposited data

How the results depend on the processing

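No paired analysis was possible because no group held more than 1 array. The counts of rising and falling genes (9 and 10 collagen, 4 and 4 laminin, 7 and 4 integrin, 26 and 32 partner genes) moved by over 1.5 times in these cases. With the array median as the scaling, 4 collagen, 0 laminin and 8 partner genes rose and 7 integrin genes fell. With the spike-in controls, 3 collagen, 0 laminin, 1 integrin and 4 partner genes rose. With the slide as a block, 4 collagen (3 of them among the 9), 0 laminin, 3 integrin and 6 partner genes rose, and 3 collagen, 0 laminin, 2 integrin and 4 partner genes fell. On log2 hours 2 laminin and 17 partner genes rose, as many as over 3 to 54 h (2 and 17). Leaving out 1 array gave 7 to 11 rising and 10 to 11 falling collagen genes, 3 to 4 rising and 3 to 4 falling laminin genes, 7 and 4 to 5 integrin genes, and 22 to 27 and 28 to 33 partner genes. The cause of these differences was not tested.

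Under the spike-in scaling the slope turned to -0.00815 for LAMA1, -0.000668 for LAMA5, -0.00297 for LAMB2, -0.00303 for LAMC3, -0.00209 for COL1A2, -0.00115 for ITGB1 and -0.000133 for NID1, and the late minus early change to -0.0574 for LAMA2, -0.27 for LAMA5, -0.31 for LAMB2, -0.30 for LAMC3, -0.075 for ITGB7, -0.11 for ITGA2B, -0.28 for COL1A2, -0.10 for COL6A2, -0.28 for ITGB1, -0.10 for NID1 and -0.020 for HSPG2. Under the array median the slope of LAMA1 was -0.00494, and the change was -0.039 for LAMB2, -0.023 for LAMC3, -0.0034 for COL1A2 and -0.0019 for ITGB1. The slope of LAMC3 was -0.000376 with the slide as a block, that of LAMA4 0.00163 with the mean of its probes, and that of ITGA6 0.00586 over 3 to 54 h. The change of COL4A2 was 0.0020 with normexp and quantile normalization. Signals near background limit ITGAX, ITGB2, ITGA1 and the type VI chains COL6A5 and COL6A6.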

Other observations

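Some members had a single value far from the neighbouring time points besides those given above. ITGA11 stood at 199 at 14 h, between 69.8 at 12 h and 94.0 at 16 h, on the array that also held the isolated value of COL2A1. COL27A1 was highest on that array too, at 1218, but stayed at 956 at 16 h and 989 at 20 h after 682 at 12 h, on the other side of a slide border. ITGA3 stood at 657 at 8 h, between 359 at 6 h and 284 at 10 h, and COL5A2 at 1559 at 28 h, between 1073 at 24 h and 842 at 32 h.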
